A study of Mus musculus with 2 samples.

Results

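Expression of 8 genes of TNF receptor costimulation, Tnfrsf4, Tnfrsf9, Tnfrsf18, Tnfrsf1b, Cd27, Traf1, Nfkb2 and Relb, was measured in splenic regulatory T cells (Tregs) with and without the zinc finger protein Zfp335. They were picked by symbol from the 32285 genes counted in both libraries, and all 8 were measured. YFP+ 7AAD- cells had been sorted from spleens of 7-day-old C57BL/6J mice and sequenced as single cells in droplets. WT mice gave 1 library, and KO (Zfp335fl/flFoxp3-Cre) mice gave the other. In KO mice the Cre recombinase, expressed from the Foxp3 locus together with YFP, deletes floxed Zfp335 in cells that express Foxp3. The study's WT mice carried the same Foxp3-driven Cre and YFP without floxed Zfp335, so both genotypes share that allele. How many mice were pooled for each library is not given in the sources used here. There is no replicate, no difference between WT and KO could be tested, and every interval is a 95% interval that covers counting error only.

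The receptors among these genes sit on the surface of activated T cells and Tregs and are bound by ligands of the TNF family on antigen-presenting cells. Bound receptors gather TRAF adaptor proteins, which lead to NF-kappaB, a family of transcription factors held back by inhibitor proteins. In the canonical branch, IkappaB kinases remove the inhibitors. In the non-canonical branch, the kinase NIK leads to processing of the precursor that Nfkb2 encodes, and the product binds DNA with RelB. In Tregs these receptors are known as costimulators of growth and survival, and several of them are used as marks of activated Tregs.

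Each droplet is known by its barcode, and each captured transcript by 1 unique molecular identifier (UMI). Barcodes were kept if they held 300 or more genes and no more than 5% of UMIs from mitochondrial genes, which left 8053 in WT and 13767 in KO. Of 14 clusters, 8 were of the T lineage, with 7476 WT and 12933 KO barcodes and medians of 5031 and 2699 UMIs. States were named from marker lists that hold none of the 8 genes, and the 8 genes and their pathway were left out of the clustering. The resting-like cluster was led by Ly6c1, Dapl1 and Satb1, with 7 of 9 resting markers raised, and held 2702 WT and 5379 KO barcodes. The activated-like cluster, with Lad1, Srm, Nefh and the S-phase gene Ung among its leading genes and 7 of 12 activated markers raised, held 431 and 1056. The effector-like cluster, led by Klrg1, S100a4 and S100a6, held 1947 WT but 120 KO barcodes. A cycling cluster held 588 and 808 barcodes, and a cycling effector-like cluster held 659 and 362. Another 3 T-lineage clusters with haemoglobin, neutrophil or heat-shock RNA stayed unnamed and count only among all T-lineage barcodes. The one led by haemoglobin genes held 1079 WT and 4353 KO barcodes, with medians of 685 and 1415 UMIs. The one led by neutrophil genes held 12 and 820, with medians of 736 and 1164 UMIs, and the heat-shock one 58 and 35. The named states thus leave out a larger part of the KO than of the WT T-lineage barcodes. These states were rebuilt here and need not be the populations of the study.

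Foxp3, the gene that defines Tregs, was at 22.7 to 65.4 CPM in the T-lineage clusters of WT and at 26.3 to 61.1 CPM in those of KO, highest in resting-like barcodes in both. It was at 5.29 and 12.5 CPM in the erythroid-like clusters of WT and at 15.6 and 10.5 CPM in those of KO, and at 3.75 to 9.87 CPM in the neutrophil-like clusters. A macrophage-like cluster of 44 WT and 9 KO barcodes was above all of these, at 75.3 and 128 CPM. There 1 UMI stands for 12.6 CPM in WT and 64.1 CPM in KO, so these levels rest on few UMIs. The T-lineage markers summed there to 4444 CPM in WT and 4488 CPM in KO, so these barcodes also held T cell RNA. These markers were at 3342 to 6720 CPM in T-lineage clusters and at 601 to 1529 CPM in erythroid-like and neutrophil-like ones. A B-lineage-like cluster of 44 WT barcodes was at 20.6 CPM, close to the lowest T-lineage level. In it 1 UMI stands for 5.15 CPM, and its 33 KO barcodes were at 0 CPM. CPM are the UMIs of a gene over all UMIs of the barcodes summed, scaled to a common total. In T-lineage barcodes Zfp335 itself was at 8.15 CPM (7.36 to 8.99) in WT, from 395 UMIs. In KO it was at 0.784 CPM (0.563 to 1.06), from 41 UMIs. The libraries shared 29 kept barcode sequences. Leaving these out changed no count of genes past the fold given here.

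The genes lie at 5 chromosomes of the GRCm38 mouse genome. Tnfrsf4 (ENSMUSG00000029075, chr4:156013843-156016612, plus strand) and Tnfrsf18 (ENSMUSG00000041954, chr4:156026164-156028895, plus strand) are neighbours, 9551 bp apart. Tnfrsf9 (ENSMUSG00000028965, chr4:150914562-150946102, plus strand) overlaps Camta1 on the other strand. Tnfrsf1b (ENSMUSG00000028599) is at chr4:145213463-145246870, minus strand. Cd27 (ENSMUSG00000030336, chr6:125232622-125237010, minus strand) overlaps Vamp1, and Nfkb2 (ENSMUSG00000025225, chr19:46304320-46312385, plus strand) overlaps Psd, each on the other strand. Traf1 (ENSMUSG00000026875) is at chr2:34941750-34961772 and Relb (ENSMUSG00000002983) at chr7:19606217-19629438, both on the minus strand. Tnfrsf18 also overlaps Gm16008, and Nfkb2 AC114539.1, each on the other strand, and Cd27 overlaps Mir8113 on the same strand. Whether strand was used in counting is not given in the sources used here, so whether reads of overlapping genes were shared is not known.

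Promoter windows, 250 bases before to 50 after each RefSeq start (GRCm38.p6), were at hand for 7 of the 8 genes, all but Relb. They were searched on both strands for the NF-kappaB consensus, named here the kappaB motif, because the list holds both receptors that act on NF-kappaB and 2 of its subunits. The motif was found in 4 of the 10 windows, which belong to Nfkb2 and Tnfrsf9, and in 8.46% of all 32851 windows. The last 2 of the 3 Nfkb2 windows overlap, and the single match of the last is also in the one before it. The window with the most matches was the first of Nfkb2, with 4 matches at 3 starting places. Both Tnfrsf9 windows lie inside the span of the gene given above. The second had 3 matches at 2 places, and the first had none. The single Tnfrsf4 window had no match. These 3 windows are printed because Nfkb2 and Tnfrsf9 hold the matches and Tnfrsf4 followed Tnfrsf9 most closely over the states. Capitals mark the matches, which overlap where both strands match.
Nfkb2 first window, chr19:46304487-46304786, plus strand: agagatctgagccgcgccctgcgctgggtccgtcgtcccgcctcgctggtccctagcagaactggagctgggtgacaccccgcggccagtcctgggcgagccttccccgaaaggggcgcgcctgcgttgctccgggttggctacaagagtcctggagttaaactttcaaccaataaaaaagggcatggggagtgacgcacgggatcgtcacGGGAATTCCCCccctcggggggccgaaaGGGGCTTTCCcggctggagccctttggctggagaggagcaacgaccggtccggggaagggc
Tnfrsf9 second window, chr4:150927749-150928048, plus strand: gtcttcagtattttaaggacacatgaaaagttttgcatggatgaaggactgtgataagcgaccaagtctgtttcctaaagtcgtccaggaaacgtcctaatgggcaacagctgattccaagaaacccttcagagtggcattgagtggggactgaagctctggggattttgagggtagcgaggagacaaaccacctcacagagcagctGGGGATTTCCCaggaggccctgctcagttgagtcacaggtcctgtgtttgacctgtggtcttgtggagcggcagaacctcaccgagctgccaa
Tnfrsf4 window, chr4:156013445-156013744, plus strand: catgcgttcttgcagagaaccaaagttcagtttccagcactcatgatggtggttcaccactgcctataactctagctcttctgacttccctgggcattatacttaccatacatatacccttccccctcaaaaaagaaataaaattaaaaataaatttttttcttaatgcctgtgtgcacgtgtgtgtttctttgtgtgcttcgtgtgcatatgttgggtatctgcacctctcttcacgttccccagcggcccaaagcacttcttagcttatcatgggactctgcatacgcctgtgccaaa
A match describes the letters of the window, and no binding was measured.

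In both libraries, the receptors Tnfrsf4 and Tnfrsf9 were far higher in activated-like than in resting-like barcodes, whereas the NF-kappaB subunits differed little. Tnfrsf4 encodes OX40. It was at 272 CPM (2893 UMIs) in WT and 380 CPM (8255 UMIs) in KO resting-like barcodes, and at 1015 CPM (4715 UMIs) and 825 CPM (7695 UMIs) in activated-like barcodes. Activated-like barcodes were thus above resting-like ones 3.74-fold (3.57 to 3.92) in WT and 2.17-fold (2.11 to 2.24) in KO. The fold in KO was 0.581 (0.550 to 0.614) of that in WT.

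Tnfrsf9, which encodes the receptor CD137, had 45.2 CPM in WT and 53.5 CPM in KO resting-like barcodes, and 199 and 173 CPM in activated-like ones. Its folds were 4.40 (3.93 to 4.92) in WT and 3.23 (2.99 to 3.49) in KO, and the KO fold was 0.735 (0.643 to 0.840) of that in WT. For both receptors the KO level was above WT in resting-like and below WT in activated-like barcodes.

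Tnfrsf18, which encodes GITR, a receptor that Tregs carry also at rest, had a smaller step. It was at 255 CPM in WT and 337 CPM in KO resting-like barcodes and at 394 and 482 CPM in activated-like ones, with folds of 1.55 (1.46 to 1.64) and 1.43 (1.38 to 1.49). KO was above WT in both states. Tnfrsf1b encodes TNFR2, the TNF receptor typical of Tregs, and rested on few UMIs. It was at 12.9 and 13.2 CPM in WT and KO resting-like barcodes and at 28.0 and 23.1 CPM in activated-like ones, with folds of 2.18 (1.70 to 2.79) and 1.75 (1.46 to 2.10).

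Cd27, the receptor of the list that naive T cells carry, went the other way. It was at 247 CPM in WT and 221 CPM in KO resting-like barcodes and at 155 and 137 CPM in activated-like ones, with near equal folds of 0.628 (0.578 to 0.682) and 0.618 (0.581 to 0.658). Traf1, an adaptor without a ubiquitin ligase domain that binds other TRAF proteins, was at 178 and 131 CPM in resting-like and 141 and 119 CPM in activated-like barcodes. Its folds, 0.790 (0.722 to 0.864) in WT and 0.911 (0.849 to 0.977) in KO, stayed within 1.5-fold.

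Nfkb2 and Relb, the subunits of the non-canonical branch, showed almost no step. Nfkb2 was at 43.2 and 50.6 CPM in WT and KO resting-like barcodes and at 43.7 and 52.0 CPM in activated-like ones, with folds of 1.01 (0.854 to 1.20) and 1.03 (0.922 to 1.15). Relb was at 48.8 and 60.1 CPM at rest and at 54.9 and 52.4 CPM in activated-like barcodes. Its folds were 1.12 (0.964 to 1.31) in WT and 0.872 (0.785 to 0.969) in KO.

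A gene was counted as past the fold where its level differed at least 1.5-fold with at least 50 UMIs over both groups. Between activated-like and resting-like barcodes, 5 of the 8 genes were past the fold in WT, where 44.6% of 9544 genes were, and 4 of 8 in KO, where 35.8% of 10318 genes were. The list's median log2 fold was 0.40 in WT and 0.28 in KO, beside -0.10 and -0.07 over all genes. Differences past the fold between these states were thus common to many genes. Tnfrsf4 and Tnfrsf9 had the largest folds of the 8 genes in both libraries. The states were set from the same barcodes, so these folds are a description.

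**Figure D1:**
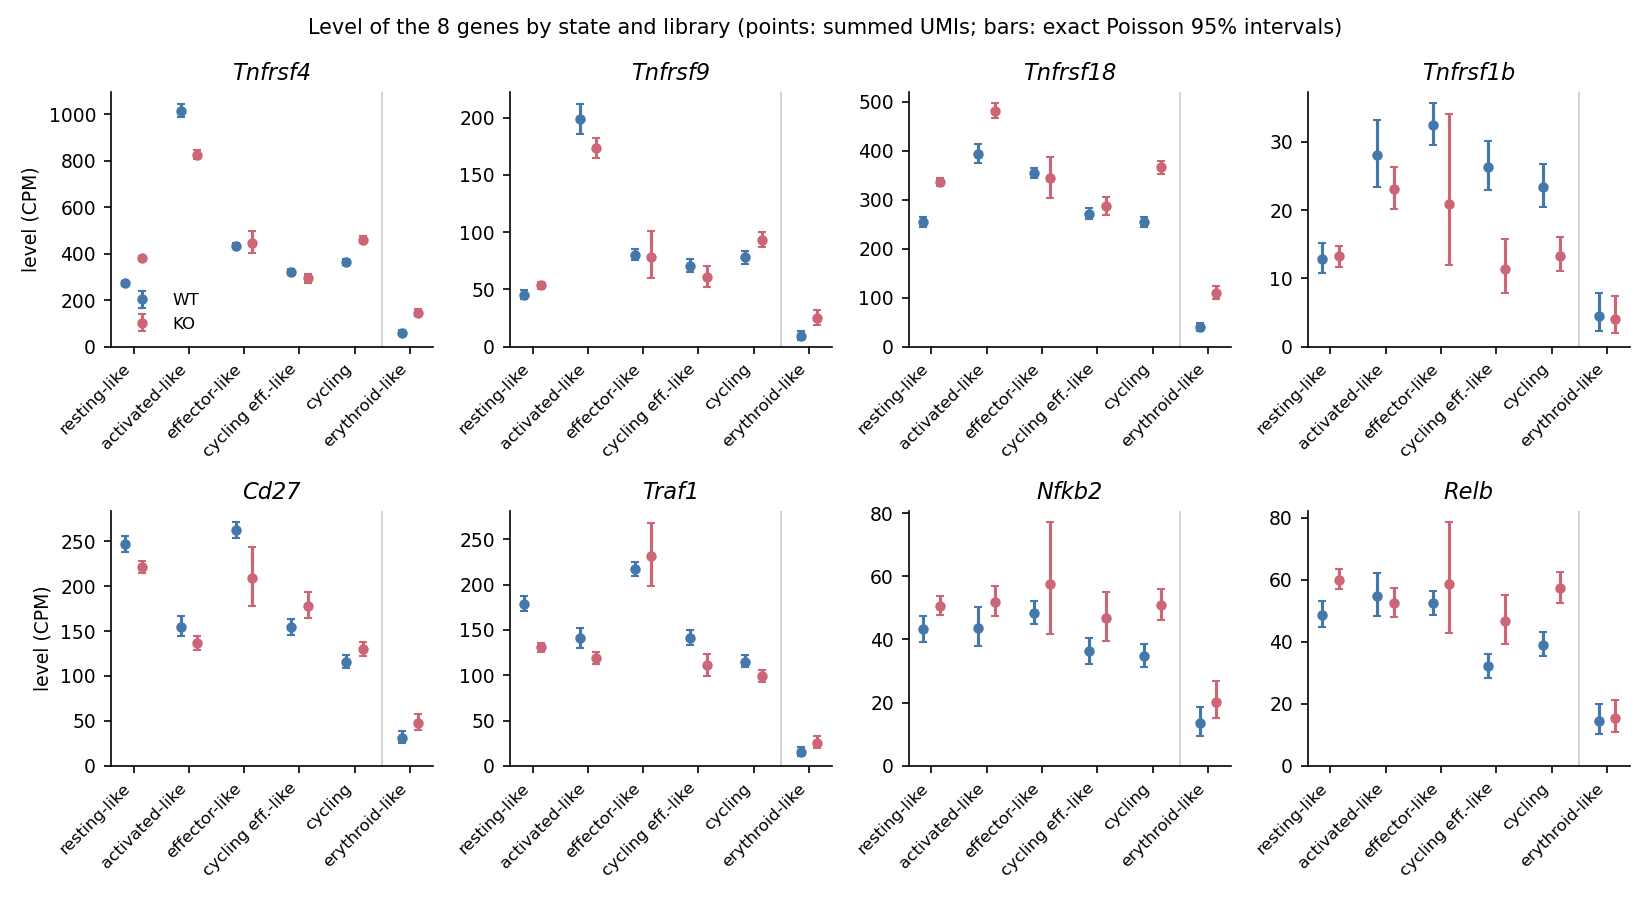
Level of each gene in CPM (vertical axis, from 0) in 5 T-lineage states and in erythroid-like barcodes, for the WT library (blue) and the KO library (red), with exact Poisson 95% intervals. Tnfrsf4 peaks in activated-like barcodes at 1015 CPM in WT and 825 CPM in KO, whereas Cd27 is lower there than in resting-like barcodes.

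**Figure D2:**
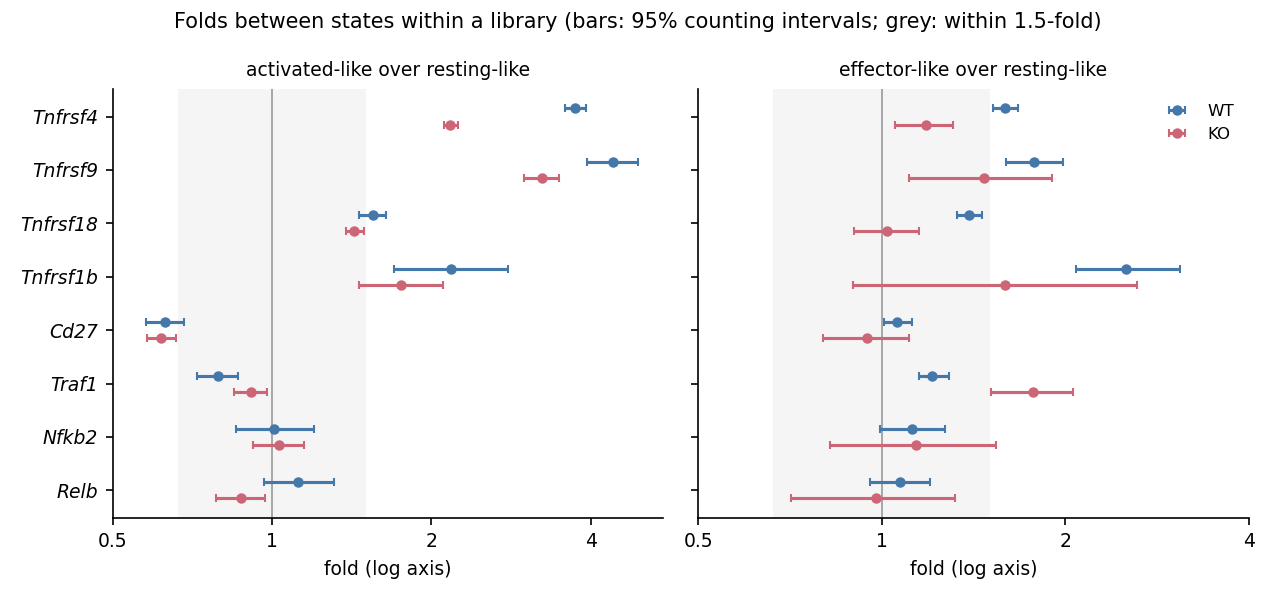
Fold of each gene in activated-like and effector-like over resting-like barcodes (horizontal log axis) in WT (blue) and KO (red), with 95% counting intervals and the range within 1.5-fold in grey. Tnfrsf4 stands at 3.74 in WT and 2.17 in KO for activated-like barcodes, and Nfkb2 stands near 1 in both.

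In effector-like barcodes, which carry genes of Tregs that enter tissues, the folds of Tnfrsf4 and Tnfrsf9 over rest were smaller than in activated-like barcodes, and those of Traf1 and Cd27 larger, in both libraries. In WT, Tnfrsf1b was at 32.5 CPM, or 2.52-fold (2.08 to 3.08) its resting-like level, Tnfrsf9 at 80.3 CPM, or 1.78-fold (1.60 to 1.98), and Tnfrsf4 at 433 CPM, or 1.59-fold (1.52 to 1.67). These 3 of 8 genes were past the fold in WT, where 19.4% of genes were. In KO, 2 of 8 were past it, where 26.2% of genes were: Traf1 at 231 CPM, or 1.77-fold (1.51 to 2.06), and Tnfrsf1b at 20.9 CPM, or 1.59-fold (0.896 to 2.62). The KO effector-like class rests on 120 barcodes and 16 UMIs of Tnfrsf1b. It also differed in content: the 12 effector markers summed to 5722 CPM in WT and 4024 CPM in KO, and the 5 CD8 or NK markers to 159 and 469 CPM, with none of the 5 at 0 in either library. Their part in the result was not tested.

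Between the libraries, few of the 8 genes differed by much within a state. Over all T-lineage barcodes, 1 of 8 genes, Tnfrsf1b, was past the fold and lower in KO, where 12.2% of 12199 genes were lower and 6.17% higher. It was at 24.8 CPM (1202 UMIs) in WT and 15.5 CPM (811 UMIs) in KO, a ratio of 0.626 (0.572 to 0.685). Of the 40 values formed by 8 genes and 5 states, 3 were past the fold, and all 3 were Tnfrsf1b. The unnamed clusters are not among these 40. In the one led by haemoglobin genes the Tnfrsf1b ratio was 0.483 (0.326 to 0.732), from 33 WT and 124 KO UMIs.

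Tnfrsf1b was nearly equal in resting-like barcodes and lower in KO in the others. The KO to WT ratio was 1.02 (0.832 to 1.26) in resting-like and 0.823 (0.659 to 1.03) in activated-like barcodes. It was 0.643 (0.365 to 1.06) in effector-like, 0.568 (0.450 to 0.714) in cycling and 0.431 (0.293 to 0.618) in cycling effector-like barcodes. In the last 2 states the levels were 23.4 against 13.3 CPM (230 and 115 UMIs) and 26.3 against 11.4 CPM (219 and 35 UMIs). The intervals of these 2 ratios lay below 1, and those of the other 3 states held it. These 2 classes also differed in content between the libraries. The 12 effector markers summed to 4918 CPM in WT and 1593 CPM in KO cycling barcodes. In cycling effector-like barcodes they summed to 7127 and 2336 CPM. The part of this difference in the ratios was not tested. At a clustering resolution of 1.0 the ratio in cycling barcodes was 0.910 and was not past the fold. The ratio in effector-like barcodes was not past the fold either at that resolution, at 0.747, or without the highest doublet scores, at 0.685.

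In resting-like barcodes none of the 8 genes was past the fold, where 12.7% of 10481 genes were lower and 2.59% higher in KO. The largest ratios were those of Tnfrsf4, 1.40 (1.34 to 1.46), and Tnfrsf18, 1.32 (1.27 to 1.38). The lowest was that of Traf1, 0.733 (0.691 to 0.777). Cd27 was at 0.896 (0.854 to 0.940), and Tnfrsf9, Nfkb2 and Relb were between 1.17 and 1.23. The list's median log2 ratio was 0.24, beside -0.12 over all genes tested. Divided by the median ratio of all genes, 1 of the 8, Tnfrsf4, was past the fold at 1.52, and 8.05% of genes were lower and 4.09% higher.

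Levels in barcodes that should lack these genes also differed between the libraries. In erythroid-like barcodes, where the erythroid markers led, Tnfrsf4 was at 60.0 CPM (160 UMIs) in WT and 145 CPM (357 UMIs) in KO, and Tnfrsf18 at 39.7 and 110 CPM. The KO minus WT difference of Tnfrsf4 was 85.1 CPM there and 108 CPM in resting-like barcodes. For Tnfrsf18 it was 70.8 CPM there and 82.1 CPM at rest, for Nfkb2 6.82 and 7.38 CPM, and for Relb 0.822 and 11.3 CPM. For Tnfrsf9 it was 15.4 CPM there but 8.36 CPM at rest and 15.6 CPM in cycling barcodes. For Traf1, in contrast, it was 9.85 CPM in erythroid-like and -47.7 CPM in resting-like barcodes. For Cd27 it was 16.5 CPM in erythroid-like, -25.6 CPM in resting-like and 14.1 CPM in cycling barcodes. The 9 erythroid markers summed to 549 CPM in WT and 1166 CPM in KO resting-like barcodes, with none at 0, and the 10 neutrophil markers to 403 and 268 CPM. The part of RNA from outside the cell in the KO to WT ratios was not tested.

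The resting-like class was also made up differently in the libraries. Its barcodes fell into 4 finer clusters with at least 50 barcodes in each library. The finer cluster that held 1770 WT barcodes held 763 of KO, and another held 87 WT and 1210 KO barcodes. Within the finer clusters the Tnfrsf4 ratio was 1.31, 1.20, 1.30 and 0.980, and the Tnfrsf18 ratio 1.13, 1.26, 1.28 and 1.30. Traf1 was between 0.664 and 0.919 in all 4. Tnfrsf9 lay on both sides of 1. It was at 0.872 (0.688 to 1.10), 1.04 (0.712 to 1.57) and 0.822 (0.536 to 1.32), with intervals that held 1. Only in the finer cluster of 530 WT and 1973 KO barcodes was its interval above 1, from 1.23 to 1.85.

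In activated-like barcodes none of the 8 was past the fold, where 9.76% of 9094 genes were lower and 4.26% higher, or 7.68% and 5.61% once divided by the median ratio. Tnfrsf4, at 0.813 (0.784 to 0.843), and Tnfrsf9, at 0.871 (0.803 to 0.946), were lower in KO, although both were higher in KO erythroid-like barcodes. Tnfrsf18 was higher, at 1.22 (1.16 to 1.29). Cd27 at 0.882 and Traf1 at 0.844 were lower, Nfkb2 at 1.19 was higher, and the Relb ratio was 0.954 (0.819 to 1.12). This class also differed in content between the libraries. The effector markers summed to 1906 CPM in WT and 1051 CPM in KO, and the resting markers to 788 and 1200 CPM. The activated markers summed to 606 and 611 CPM. The part of this difference in the ratios, and in the folds over resting-like barcodes, was not tested.

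In effector-like barcodes 1 of 8 genes was lower past the fold, where 14.1% of genes were lower and 9.54% higher, and in cycling effector-like barcodes 1 of 8, where 11.7% were lower and 9.99% higher. In the cycling cluster 1 of 8 was lower, where 8.30% of genes were lower and 8.34% higher. In each of these states the gene was Tnfrsf1b. Neither subunit was past the fold. Relb was at 39.1 CPM in WT and 57.3 CPM in KO cycling barcodes, a ratio of 1.47 (1.28 to 1.68), and Nfkb2 at 34.9 and 51.0 CPM, or 1.46 (1.27 to 1.69). In cycling effector-like barcodes Relb was at 32.1 and 46.8 CPM, or 1.46 (1.18 to 1.79). Tnfrsf18 was at 255 and 366 CPM in cycling barcodes, or 1.44 (1.36 to 1.51).

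**Figure D3:**
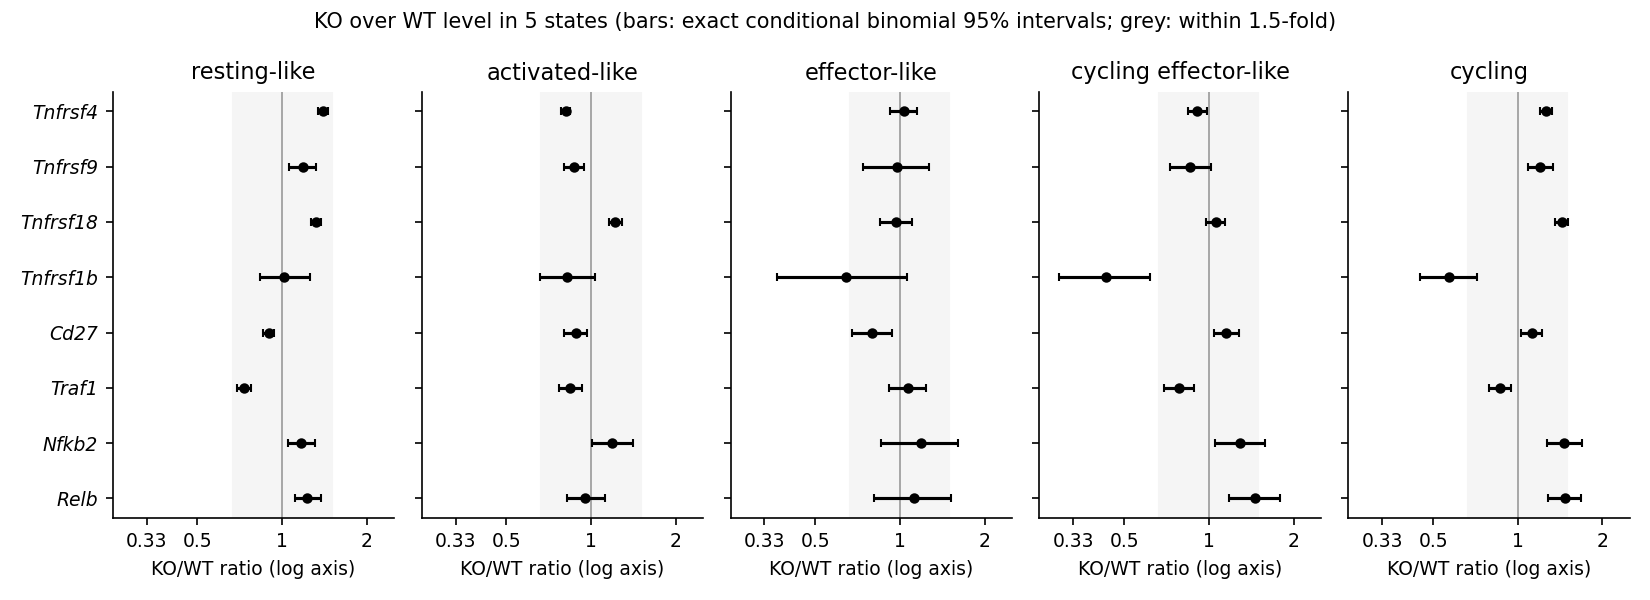
KO over WT level of each gene (horizontal log axis) in 5 states, with exact conditional binomial 95% intervals and the range within 1.5-fold in grey. Points outside the grey range are those of Tnfrsf1b in effector-like, cycling effector-like and cycling barcodes, and Tnfrsf4 changes side between resting-like and activated-like barcodes.

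The states made up different shares of the libraries, so the KO levels were also weighted by the WT shares of UMIs of the T-lineage clusters. At the WT mix, the KO level of Tnfrsf4 was 444 CPM instead of 479, against 419 in WT, and the KO to WT ratio was 1.06 instead of 1.14. Traf1, which among the named states was highest in effector-like barcodes, was at 148 CPM instead of 118, against 166 in WT, so its ratio was 0.893 instead of 0.713. Tnfrsf1b stayed at 0.650, beside 0.626 without weighting. Relb stayed at 1.23 and Nfkb2 was at 1.25, beside 1.22. Clusters at a finer resolution gave 0.930 for Tnfrsf4, on the other side of 1.

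Within the cycling and activated-like clusters, Tnfrsf4 and Tnfrsf9 were lower in barcodes scored as cycling. A barcode of at least 1000 UMIs was scored as cycling where at least 0.5% of its UMIs came from 33 genes of S and G2/M phase. Of T-lineage barcodes this deep, 767 of 6415 in WT and 1468 of 11842 in KO were, and 386 and 1129 lay near the limit, between 0.4% and 0.6%. In the cycling cluster, 524 WT and 717 KO barcodes were scored as cycling, and only 64 and 90 were the others. There Tnfrsf4 was at 303 CPM in scored and 722 CPM in other WT barcodes, or 0.420 (0.391 to 0.452). In KO it was at 386 and 822 CPM, or 0.469 (0.439 to 0.503). Tnfrsf9 was at 72.7 and 108 CPM in WT, or 0.675 (0.565 to 0.809), and at 79.9 and 160 CPM in KO, or 0.499 (0.428 to 0.583). These 2 receptors thus kept their direction in both libraries. Past the fold were 1 of 8 genes in WT, Tnfrsf4, where 25.0% of genes were, and 3 of 8 in KO, Tnfrsf4, Tnfrsf9 and Nfkb2, where 28.4% were.

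In activated-like barcodes the S-phase genes of this score summed to 1791 CPM in WT and 1749 CPM in KO, beside 416 and 393 CPM in resting-like ones. The G2/M genes summed to 549 and 521 CPM, beside 383 and 375 CPM. Only 22 activated-like barcodes of WT and 64 of KO were scored as cycling. Tnfrsf4 was at 490 CPM in them and 1040 CPM in the others in WT, or 0.471 (0.383 to 0.574), and at 487 and 844 CPM in KO, or 0.577 (0.506 to 0.655). Tnfrsf9 was at 107 and 203 CPM in WT and at 84.5 and 178 CPM in KO, or 0.526 (0.328 to 0.801) and 0.474 (0.342 to 0.642). These were the 2 of 8 genes past the fold in each library, where 37.0% of genes were in WT and 29.4% in KO. Among the cycling effector-like barcodes none of the 8 was past the fold in either library, and the Tnfrsf4 ratios were 0.921 (0.849 to 1.000) and 0.995 (0.870 to 1.14). The Tnfrsf9 ratios there were 0.726 (0.601 to 0.872) in WT and 0.749 (0.557 to 1.01) in KO.

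Pooled over all T-lineage barcodes, 1 of 8 genes in WT was past the fold, where 28.7% of genes were, and 0 of 8 in KO, where 18.4% were. The gene was Cd27, at 117 CPM in cycling and 225 CPM in other WT barcodes, or 0.521 (0.491 to 0.552), and at 143 and 187 CPM in KO, or 0.766 (0.724 to 0.810). The list's median log2 ratio was -0.39 in WT and -0.22 in KO, beside -0.15 and -0.04 over all genes. Resting-like and effector-like barcodes held at most 9 cycling barcodes in a library, which was too few for a value.

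**Figure D4:**
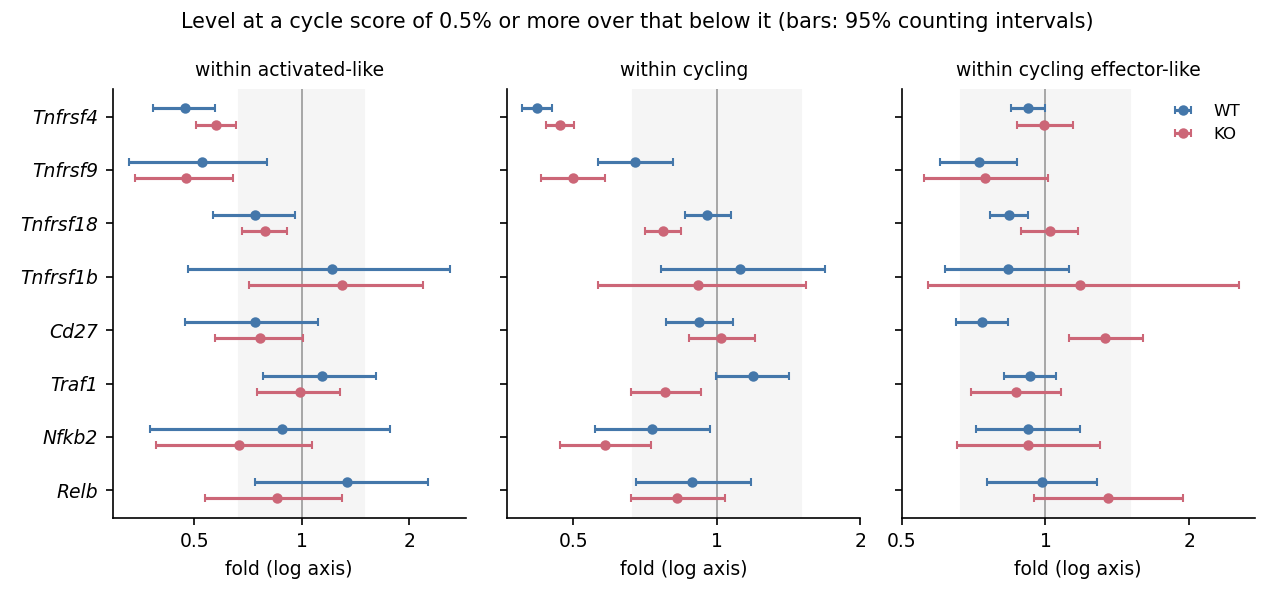
Level of each gene in barcodes scored as cycling over that in the others (horizontal log axis), within activated-like, cycling and cycling effector-like barcodes of WT (blue) and KO (red), with 95% counting intervals and the range within 1.5-fold in grey. Tnfrsf4 lies below the grey range in the first 2 panels, at 0.471 and 0.420 in WT, and inside it in the last.

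Since WT barcodes were deeper, detection was compared after drawing 1000 UMIs from every barcode (thinning), which left out 1061 WT and 1091 KO T-lineage barcodes. Tnfrsf4 was then found in 21.4% (19.8 to 23.0) of WT and 27.6% (26.4 to 28.8) of KO resting-like barcodes, and in 46.6% (41.8 to 51.5) and 46.2% (43.2 to 49.3) of activated-like ones. In erythroid-like barcodes it was found in 11.3% (7.58 to 16.0) of WT and 17.8% (14.5 to 21.6) of KO, with median depths of 5524 and 2522 UMIs before thinning, beside 3860 and 3622 in resting-like barcodes. All 5 T-lineage states were above this background, by the least in KO cycling effector-like barcodes, at 22.1% (17.9 to 26.7), where the intervals overlapped.

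Tnfrsf18 was found in 20.9% (19.4 to 22.6) of WT and 26.4% (25.2 to 27.6) of KO resting-like barcodes, beside 6.28% (3.55 to 10.1) and 16.6% (13.4 to 20.2) of erythroid-like ones. Tnfrsf9 was found in 4.07% and 4.72% of resting-like and in 15.3% and 13.2% of activated-like barcodes, beside 2.09% and 3.11% of erythroid-like ones. Its share in resting-like barcodes overlapped with that background in both libraries. In WT it was 4.07% (3.34 to 4.90) against 2.09% (0.683 to 4.81), and in KO 4.72% (4.16 to 5.33) against 3.11% (1.75 to 5.08). Traf1 was found in 14.0% (12.7 to 15.4) of WT and 10.5% (9.70 to 11.4) of KO resting-like barcodes, beside 1.26% and 3.94%. Tnfrsf1b was found in 1.46% (1.03 to 2.00) and 1.58% (1.26 to 1.96) of resting-like barcodes. In erythroid-like barcodes it was found in 0 of 239 in WT, which allows up to 1.26%, or 1.53% as the upper end of the exact interval, and in 0.207% (0.00525 to 1.15) of KO. The WT interval at rest overlapped with that background.

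Over all T-lineage barcodes, the thinned shares were 25.4% in WT and 31.7% in KO for Tnfrsf4 and 23.9% and 28.4% for Tnfrsf18. They were 15.3% and 10.0% for Traf1, 20.5% and 17.5% for Cd27, and 2.37% and 1.68% for Tnfrsf1b. Nfkb2 was found in 4.40% and 5.19% and Relb in 5.27% and 5.46%. In erythroid-like barcodes Cd27 was found in 2.51% of WT and 5.81% of KO and Relb in 2.09% and 1.66%. Nfkb2 was found there in 0 of 239 WT barcodes, with the same limits as above, and in 2.90% of KO. For Relb in WT the T-lineage interval, 4.73 to 5.84, overlapped with that background, 0.683 to 4.81. The same held for Nfkb2 in KO, at 4.80 to 5.61 against 1.60 to 4.83. Without thinning the deeper WT barcodes held more: Tnfrsf4 was found in 60.5% of WT and 58.8% of KO and Tnfrsf18 in 62.4% and 56.4%, so the order of the libraries turned with depth. It turned also for Tnfrsf9, found in 5.92% of WT and 6.93% of KO after thinning and in 24.6% and 19.9% without, and for Nfkb2 and Relb. Of resting-like barcodes, 53.7% in WT and 58.7% in KO held at least 1 of the 5 receptors after thinning, and of activated-like ones 70.3% and 70.8%.

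**Figure D5:**
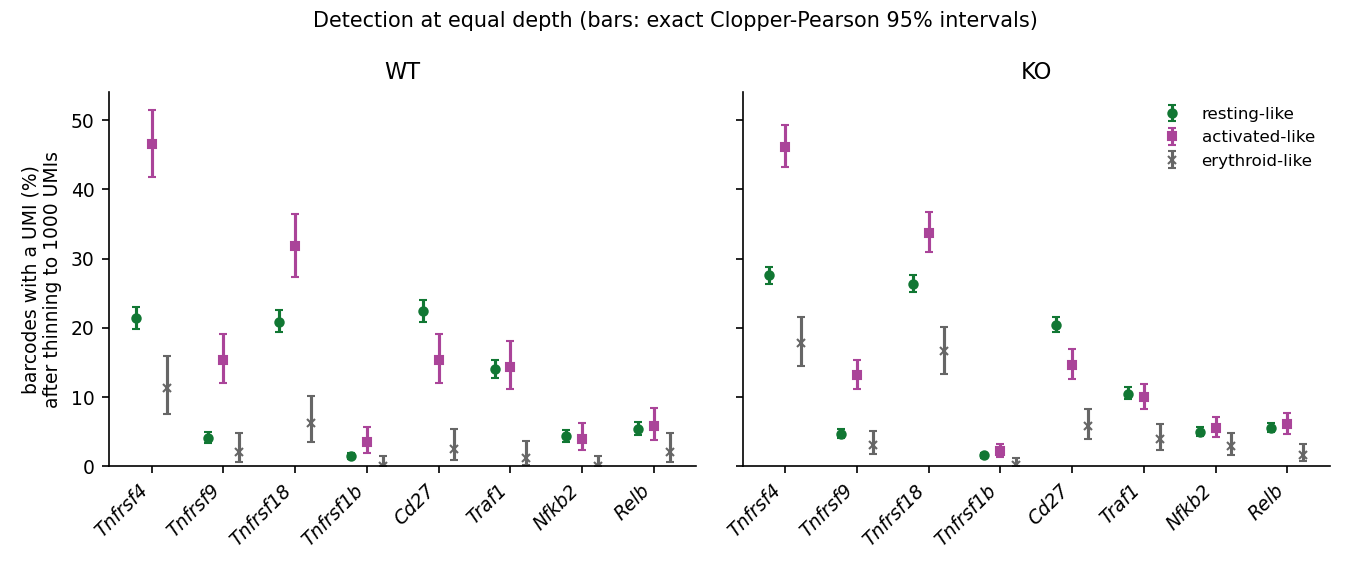
Share of barcodes with a UMI of each gene after thinning to 1000 UMIs (vertical axis, percent) in resting-like, activated-like and erythroid-like barcodes of each library, with exact Clopper-Pearson 95% intervals. Tnfrsf4 is found in 46.6% of WT and 46.2% of KO activated-like barcodes, and the erythroid-like background is 11.3% in WT and 17.8% in KO.

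The 8 genes fell into groups when their levels were compared over the 14 pairs of T-lineage cluster and library with at least 50 barcodes. Pearson's r of log2(CPM + 5) was 0.95 for Tnfrsf4 with Tnfrsf9, 0.82 for Tnfrsf4 with Tnfrsf18, 0.82 for Nfkb2 with Relb and 0.71 for Cd27 with Traf1. Between Tnfrsf9 and Cd27 it was -0.52. The pairs share libraries and depths, so these values are a description. Among 8704 genes, the closest to Tnfrsf4 after Tnfrsf9 were Guk1 (0.91) and Tmem147 (0.91), and the closest to Tnfrsf9 after Tnfrsf4 was Eif2b3 (0.92). Tnfrsf18 was closest to Mea1 (0.86), Ndufa7 (0.85) and Sco2 (0.85), and Tnfrsf1b to Lgalsl (0.90), Smco4 (0.90) and Ahsa2 (0.89). Cd27 was closest to Pdcd4 (0.97), Mxd4 (0.96) and Il7r (0.95), and Traf1 to Ago3 (0.98), Vps41 (0.94) and Hook3 (0.92). Nfkb2 was closest to Tagap (0.89), Kdm6b (0.89) and Nfkbia (0.87), and Relb to Nr4a1 (0.91), Gadd45b (0.89) and Nfkbia (0.87).

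Of 64 further genes of the pathway, 58 had enough UMIs over all T-lineage barcodes, and 11 were lower and 10 higher past the fold in KO, beside the 12.2% and 6.17% of all genes given above. Among ligands, 6 of 11 were lower and 2 higher. Tnfsf14, which encodes LIGHT, was at 5.94 CPM in WT and 1.99 CPM in KO, a ratio of 0.335 (0.265 to 0.421), and Tnfsf13b, which encodes BAFF, at 0.763 and 0.325 CPM, or 0.426 (0.225 to 0.776). Lta, which encodes lymphotoxin alpha, was at 25.6 and 88.8 CPM, or 3.47 (3.26 to 3.69), and Tnfsf8, the CD30 ligand gene, at 10.9 and 33.7 CPM, or 3.10 (2.81 to 3.42). The ligand genes thus held both the lowest and the highest ratios of the list. These counts and ratios pool states whose shares differ between the libraries. In effector-like barcodes 0 of 9 ligands were lower and 5 higher, and Tnfsf14 was at 1.55 (0.723 to 2.95). In cycling effector-like barcodes 2 of 7 were lower and 4 higher, and in cycling ones 1 of 8 and 4. In activated-like ones 3 of 8 were lower and 3 higher. The shares of all genes in these states are given above.

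Of 9 other receptors measured, 2 were lower and 2 higher. Tnfrsf8, which encodes CD30, was at 2.87 CPM in WT and 0.976 CPM in KO, or 0.340 (0.242 to 0.472). Of 11 adaptors, 1 was lower and 1 higher, and the higher was Traf4 at 10.4 and 21.8 CPM, or 2.10 (1.89 to 2.33). Of 14 kinases, inhibitors and nuclear IkappaB proteins none was lower and 3 were higher. None of the 3 other NF-kappaB subunits was past the fold. Of 10 target genes, 2 were lower and 2 higher.

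In resting-like barcodes 5 of the 54 pathway genes measured were lower and 8 higher, beside 12.7% and 2.59% of all genes. The lower genes were Tnfsf14 at 0.318, Tnfsf11 at 0.589, Tnfsf9, the ligand of the Tnfrsf9 product, at 0.618 (0.345 to 1.12), Tnfsf10 at 0.667 and Bcl2a1b at 0.666. Bcl2a1b, a survival gene, has near-identical copies between which reads can be split, so its value is uncertain. Among the higher genes was Nfkbia, which encodes an inhibitor of NF-kappaB, at 614 CPM in WT and 969 CPM in KO, or 1.58 (1.53 to 1.62). Nfkbid at 1.58 (1.34 to 1.86) and Bcl3 at 1.70 (1.51 to 1.92) encode nuclear proteins of the same IkappaB family, which can also act as co-activators with NF-kappaB subunits. Of the other higher genes, Lta was at 1.97, Tnfsf8 at 1.74, Traf4 at 1.51, Icam1, an adhesion gene, at 1.88 (1.61 to 2.20), and Tnfrsf14, the receptor of LIGHT, at 2.25 (1.66 to 3.10). Tnfrsf14 rested on 52 UMIs in WT and 239 in KO.

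Between activated-like and resting-like barcodes, 8 of 52 pathway genes were higher and 21 lower past the fold in WT, and 8 of 53 higher and 13 lower in KO. Of all genes tested, 19.2% were higher and 25.3% lower in WT, and 16.9% and 18.9% in KO. Irf4, counted as higher in both libraries at 3.95 and 2.28, is also among the markers used to name the activated-like state. All 6 other receptors measured in WT were lower, opposite to Tnfrsf4 and Tnfrsf9, and 4 of 7 in KO. None of the 3 other NF-kappaB subunits was past the fold in either library.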

How the data were processed

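The authors deposited 1 matrix of raw UMI counts for each library. Per the labels, these counts came from Cell Ranger 5.0.1 with the mm10 genome. Both libraries list the same 32285 genes. They held 14524 WT and 18134 KO barcodes with 64567991 and 65480052 UMIs. The counts were used as deposited. Barcodes under 300 genes or over 5% mitochondrial UMIs were dropped, and no doublets were removed in the main analysis. Counts were scaled to 10000 UMIs, log-transformed and reduced from 2000 variable genes, clipped at 10, to 30 principal components (scikit-learn 1.9.0). Leiden clusters at resolution 0.5 were drawn from a graph of 20 neighbours (igraph 0.11.9), without integration.

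The 8 genes and all lists were chosen with earlier results of these data known, and the rule that names clusters was set after the clusters were seen. A T-lineage cluster had at least 50% of the highest cluster's level of the T and Treg lists. A state needed 2 of its markers among the 20 leading genes and 3 markers raised 1.5-fold. UMIs were summed per state and library. UMI sums carry exact Poisson intervals, ratios exact conditional binomial intervals and shares exact Clopper-Pearson intervals, and the interval of a fold over a fold is approximate. Shares of 0 allow up to 3 counts. Log2 ratios, from which genes past the fold were counted, had 0.5 added to each sum. With 1 library per genotype no test was run. The named genes were the 8, the 3 genes most alike to each, and, of the pathway list, the 3 highest and 3 lowest ratios over T-lineage barcodes and all past the fold in resting-like ones. Of the genes so named, 1 is not reported here. The scripts were tested on simulated counts. Doublet scores came from scanpy 1.11.5.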

Additional observations from a re-analysis of the deposited data

Results flagged for a closer look

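For 3 genes, the KO level was above the WT level in one state and below it in another, with counting intervals clear of 1 on both sides. There is 1 library per genotype, so the difference between states was not tested. The Tnfrsf4 ratio of KO to WT was 1.40 in resting-like and 1.26 in cycling barcodes, but 0.813 in activated-like and 0.911 in cycling effector-like barcodes. For Tnfrsf9 it was 1.19 in resting-like and 1.20 in cycling barcodes, but 0.871 in activated-like ones. For Cd27 it was 1.12 in cycling and 1.15 in cycling effector-like barcodes, but 0.896 in resting-like, 0.882 in activated-like and 0.797 in effector-like ones. All of these ratios lay within 1.5-fold. In cycling barcodes the KO minus WT difference was 15.6 CPM for Tnfrsf9 and 14.1 CPM for Cd27, beside 15.4 and 16.5 CPM in erythroid-like barcodes. The part of RNA from outside the cell in these ratios was not tested. Over 8 alternative settings the Tnfrsf4 ratio was between 1.28 and 1.52 in resting-like and between 0.811 and 0.983 in activated-like barcodes, whereas 1 of 4 finer clusters of resting-like barcodes, a split added after the data had been seen, gave 0.980. The Tnfrsf9 ratio in activated-like barcodes was between 0.867 and 1.13 over these settings and so changed side in 1 of them. In the same finer clusters of resting-like barcodes the Tnfrsf9 ratio lay on both sides of 1. It was at 0.872, 1.04 and 0.822, with intervals that held 1, and in the other its interval was 1.23 to 1.85. Its higher level in KO resting-like barcodes was thus not shared by all finer clusters. In cycling barcodes all 3 genes changed side in 1 setting, a clustering resolution of 1.0, where Tnfrsf4 was at 0.795, Tnfrsf9 at 0.973 and Cd27 at 0.879. The Cd27 ratio was between 0.864 and 0.972 in resting-like and between 0.751 and 0.928 in activated-like barcodes over the settings, and in effector-like ones it went down to 0.497 without the mitochondrial filter.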

How the results depend on the processing

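Results rested on 1 library per genotype, so depth limits only the counting error, and a difference between mice or preparations cannot be told apart from one between genotypes. Most results kept their value or their count of genes past the fold within 1.5 times. The cause of the following moves was not tested. Of genes lower in KO, effector-like barcodes gave 1 in the main analysis, 0 without the highest doublet scores, at resolution 1.0, by the mean of single-barcode CPM, over the median ratio or at a fold of 2, and 2 without the mitochondrial filter. At resolution 1.0, where states were rebuilt, the resting-like class held 276 WT and 1472 KO barcodes and gave 1 lower and 1 higher gene. At that resolution activated-like barcodes gave 2 lower, cycling ones 0 lower, and effector-like against resting-like in KO gave 5 genes past the fold. The mean of single-barcode CPM gave 2 lower genes over all T-lineage barcodes, 1 higher in effector-like and 1 higher in cycling ones. Over the median ratio, resting-like barcodes gave 1 higher gene. At a fold of 2, all T-lineage and cycling barcodes gave 0 lower. Cycling cuts of 1% gave 2 genes past the fold in each library over all T-lineage barcodes, and 0.25% gave 2 in WT. Both the rebuilt clusters at resolution 1.0 and without the mitochondrial filter held no cycling effector-like class, so they gave no value for it.

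The KO minus WT share of T-lineage barcodes with a UMI turned negative without thinning for 5 genes, to -1.73 percentage points for Tnfrsf4, -6.01 for Tnfrsf18, -4.70 for Tnfrsf9, -4.33 for Nfkb2 and -4.53 for Relb. It was negative with and without thinning for the other 3, at -7.13 without it for Tnfrsf1b, -19.2 for Cd27 and -19.9 for Traf1. Thinned to 2000 UMIs it was -7.30 for Traf1 and 1.37 for Relb.

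For the KO level at the WT mix, alternatives were chosen after the data had been seen. At resolution 1.0 the ratio to WT was 0.930 for Tnfrsf4, 1.10 for Tnfrsf9, 1.09 for Tnfrsf18, 0.775 for Tnfrsf1b, 0.782 for Cd27, 0.806 for Traf1, 1.34 for Nfkb2 and 1.02 for Relb. Leaving out the unnamed T-lineage clusters and splitting resting-like barcodes by finer clusters were also added after seeing the data, and without the unnamed clusters the Tnfrsf1b ratio was 0.621. No paired analysis was possible because each genotype has 1 library.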
